A study of Mus musculus with 143 samples.

Results

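The Random control regions of a captured self-transcribing reporter assay (capSTARR-seq) are described here: 478 stretches of the mouse genome, each 400 bp long, among 12897 regions assayed together in the mouse T cell line P5424. They were found as the rows whose class in the deposited tables is named Random. The tables hold 6 further classes, and the sources used here do not give how the authors drew the Random regions. P5424 is an established line, and its labels name the cell type as T cells, with no treatment, time or genotype. There were 2 RNA libraries (replicates 1 and 2) and 1 input library, which stands behind every fold. The molecule in the labels is total RNA for all 3, the input included. Nothing states that the replicates were separate cultures, so the spread between them may be technical, and p-values measure only that spread. The other 140 of the 143 samples of the series were not analysed here. The identity of the line could not be checked against marker genes, since only captured regions were measured.

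In a self-transcribing reporter assay, genomic fragments are cloned within a transcription unit, downstream of a weak promoter. A fragment that acts as an enhancer raises the transcription of its own copy, so its share of the RNA exceeds its share of the input library. Most of a mammalian genome is not expected to act as an enhancer in a given cell, and regions drawn without regard to chromatin marks therefore serve in such assays as the level against which candidate enhancers and promoters are read.

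Activity is given as fold over input, that is, the RNA value plus 1 over the input value plus 1, both in FPKM (reads per kilobase of region, scaled to the reads of the library). In all, 253480 reads of RNA replicate 1, 266086 of RNA replicate 2 and 318310 of the input fell in Random regions. That was 2.82%, 2.78% and 4.42% of the reads within all assayed regions. The class therefore took a smaller share of both RNA libraries than of the input. A Random region had a median of 304 and 331 reads in the RNA replicates and 348 in the input. Its input ranged from 17 to 5845 reads, so precision differed widely between members.

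The Random regions lay below their input as a class. The median input was 26.2 FPKM, and the median RNA was 19.0 FPKM in replicate 1 and 19.9 FPKM in replicate 2. The median fold was 0.657 and 0.679, which is a median log2 fold of -0.61 and -0.56. Over all 12897 regions the median fold was 0.852 and 0.862, so a median below input was not particular to Random. The middle 50% of the class ran from 0.517 to 0.899 in replicate 1 and from 0.515 to 0.929 in replicate 2. Both replicates thus gave nearly the same centre and the same width. Below input in both replicates were 346 of the 478 regions, or 72.4% (Wilson 95% interval 68.2 to 76.2), beside 50.8% of all 12897 regions. Above input in both were 41 regions, or 8.58% (6.39 to 11.4), beside 27% of all. The remaining 91 fell on different sides of input in the 2 replicates.

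**Figure D1:**
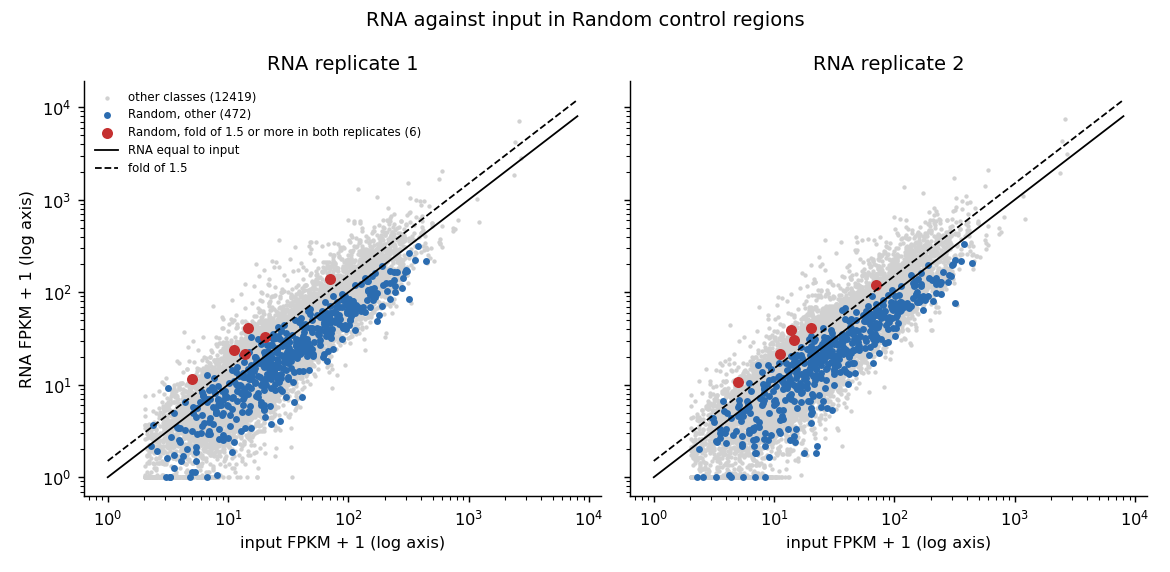
RNA against input in FPKM plus 1, on log axes, for RNA replicates 1 and 2; blue points are Random regions, red points are the 6 Random regions with a fold of at least 1.5 in both replicates, and grey points are the 12419 regions of other classes. Most blue points lie under the solid line of equal RNA and input (median fold 0.657 and 0.679), and the red points lie above the dashed line of a fold of 1.5 in both panels.

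A fold of 1.5 in both replicates was reached by 6 Random regions, or 1.26% (0.577 to 2.71), beside 8.51% of all regions. A single replicate gave 16 regions (3.35%, beside 13.6% of all) in replicate 1 and 19 (3.97%, beside 14.6%) in replicate 2, and 29 regions reached it in at least 1 of the 2 (6.07%, beside 19.6%). The tail of the class is thus made mainly of regions that were high in 1 library and not in the other. No Random region reached a fold of 3 in both, so that a share of up to 0.628% remains possible (3 counts of the total), beside 0.985% of all regions. A fold of at most 0.5 in both was found in 57 Random regions, or 11.9% (9.32 to 15.1), beside 6.79% of all.

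The 6 regions are given with their mm9 positions, as the files list them, since they show how high a control region came. The highest was chr2:34544492-34544891, at 13.7 FPKM in the input, 39.7 in RNA replicate 1 and 29.7 in replicate 2. Its fold was 2.76 and 2.08, and its mean log2 fold was 1.26 ± 0.29 (SD, n = 2). The region chr9:120965550-120965949 had folds of 2.28 and 2.16, at 4.00 FPKM in the input and 10.4 and 9.80 in the RNA. These 2 regions were above 2-fold in both replicates, and no other Random region was. The second of them rested on 53 input reads, the fewest among the 6.

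The region chrX:147489669-147490068 stood at 12.7 FPKM in the input against 20.3 and 38.2 in the RNA, with folds of 1.55 and 2.85. At chr17:25177337-25177736 the values were 10.1 FPKM in the input and 22.9 and 20.4 in the RNA, with folds of 2.15 and 1.93. The former was higher in replicate 2, while the latter was alike in both. The region chr1:137057560-137057959 was the most deeply covered of the 6, with 916 input reads and 2210 and 1993 RNA reads. Its folds were 1.99 and 1.72, at 69.1 FPKM in the input and 138 and 120 FPKM in the RNA. The last, chr5:140549647-140550046, had 19.3 FPKM in the input and 32.1 and 40.4 in the RNA, with folds of 1.63 and 2.04. Of the 6 regions, 5 had less input than the class median of 26.2 FPKM, the exception being the one on chromosome 1.

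The 10 highest regions by mean log2 fold included these 6 and a further 4 that reached 1.5 in a single replicate. The region chr4:137587280-137587679 had folds of 2.87 and 1.24 over only 29 input reads. At chr19:9012384-9012783 the folds were 1.28 and 2.19 over 85 input reads. The region chr4:126948274-126948673 had folds of 1.37 and 1.71 over 68 input reads. Better covered was chr15:83409742-83410141, with 499 input reads and folds of 1.25 and 1.76. In each of these 4 regions the replicates lay on different sides of the threshold.

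The authors' own active class, set at an inflexion point per the file headers, held 5 Random regions in replicate 1 (1.05%, beside 4.21% of all regions) and 2 in replicate 2 (0.418%, beside 4.34%). None was in it in both, beside 2.7% of all regions, and 7 were in it in either (1.46%, beside 5.85%). The lowest fold in that class was 2.12 in replicate 1 and 2.18 in replicate 2. The 5 were the regions on chromosomes 2, 9 and 17 above, the chromosome 4 region with 29 input reads, and chr10:120989613-120990012, which had folds of 2.13 and 0.954. The 2 called in replicate 2 were those on chromosomes X and 19. The chromosome 2 region just missed the limit in replicate 2, at 2.08, and the chromosome 9 region did so at 2.16. All 7 had less input than the class median.

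**Figure D2:**
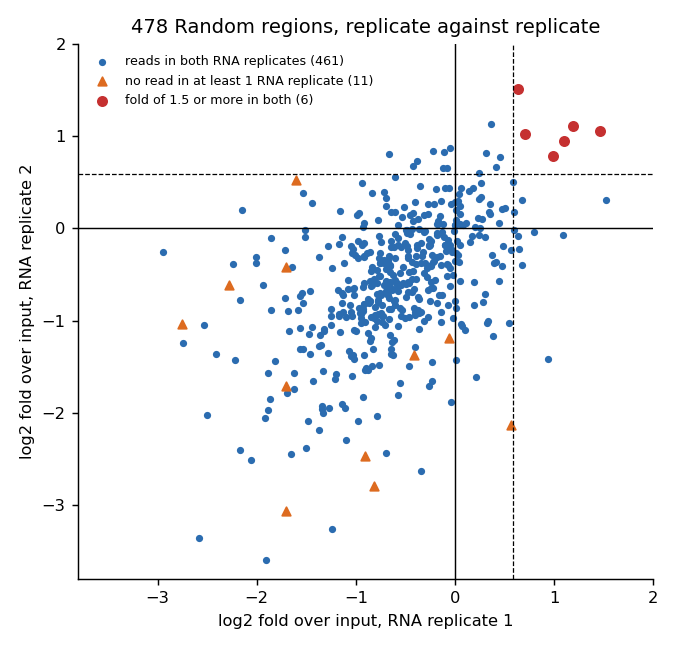
Log2 fold over input in RNA replicate 1 (horizontal) and replicate 2 (vertical) for each of the 478 Random regions; dashed lines mark a fold of 1.5, and triangles mark the 11 regions with no read in at least 1 RNA replicate. The 6 red points are the only ones past both dashed lines, and 346 regions lie below and left of both solid lines.

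A moderated test (limma, RNA against input, all 12897 regions in 1 fit with the input as a library of its own) was used to see which members stood apart from their own class. Values of each replicate were centred on the median log2 fold of Random, and a region passed with a fold of at least 1.5 from that centre and a p under 0.05 after Benjamini-Hochberg adjustment over all regions. Above the Random median, 9 of the 478 passed (1.88%, beside 13.5% of all regions). Below it, 7 passed (1.46%, beside 0.442% of all). At an unadjusted limma p under 0.05 the numbers were 30 above (6.28%, beside 22.1% of all regions) and 24 below (5.02%, beside 1.73%). The fit assumes that the input varied like an RNA library. Without the variance trend no region of any class passed. With the error of the input left out of the fit 49 and 37 Random regions did, beside 3604 and 448 of all regions. The centre was the median of Random itself, the class with the lowest median fold. The contrast with all regions therefore partly restates that difference in medians. With the median of all regions as centre, 2 Random regions passed above and 24 below, beside 892 and 171 of all regions.

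Of the 9 that passed above, 5 were among the 6 regions named first. The chromosome 1 region had the smallest adjusted p, 0.00020 (limma), at 1.47 ± 0.22 (SE) on the log2 scale over the Random median. The chromosome 2 region stood at 1.84 ± 0.43 (SE, adjusted p = 0.0070, limma). The chromosome 9 region, with its 53 input reads, did not pass (1.73 ± 0.70 SE, adjusted p = 0.131, limma), although its folds were alike in both replicates. The chromosome 15 region passed at 1.15 ± 0.32 (SE, adjusted p = 0.022, limma). The other 3 were singled out after their values were seen, because none reached a fold of 1.5 over input in either replicate. At chr2:60800247-60800646 the RNA was 189 and 194 FPKM over an input of 189, a fold of 0.999 and 1.03. The region chr18:17621150-17621549 had folds of 1.03 and 1.11 with 1821 input reads, and chr1:134142514-134142913 had folds of 1.20 and 1.40 with 842. A deeply covered region that merely equalled its input thus stood above the Random median in this test.

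The 7 that passed below all belonged to the highest quintile of input, as did 46 of the 50 regions of other classes that passed below. The place in this quintile is thus not particular to Random. The lowest of the 7 was chr5:68741151-68741550, at 316 FPKM in the input against 83.0 and 75.4 in the RNA. Its folds were 0.265 and 0.241, which is -1.40 ± 0.21 (SE) on the log2 scale from the Random median (adjusted p = 0.00014, limma). At chr15:92169991-92170390 the input was 172 FPKM and the RNA 48.2 and 63.1, with folds of 0.284 and 0.370 (adjusted p = 0.0091, limma). Both were named after their values were seen. The former had 4195 input reads and the latter 2285, and each was low in both replicates.

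The 5 lowest members by mean log2 fold, among those with a read in each RNA replicate, were covered less well, and none passed this test (adjusted p from 0.063 to 0.171, limma). The lowest was chr8:24581161-24581560, at 21.6 FPKM in the input and 2.76 and 1.20 in the RNA, with folds of 0.166 and 0.0976. The region chr14:36111082-36111481 had 282 input reads and 79 and 14 RNA reads, with folds of 0.267 and 0.0827. These are low in both replicates, but the second differed over 3-fold between them. At chr11:45034343-45034742 the folds were 0.240 and 0.175, at chr6:54956390-54956789 they were 0.223 and 0.189, and at chr11:71092854-71093253 they were 0.177 and 0.246. Each of these 3 gave like values in both replicates. The pseudocount of 1 FPKM pulls such low ratios towards 1, so these folds understate how far the RNA lay below the input.

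Measured against the input itself, without centring, 0 of the 478 Random regions passed above in the same limma fit, beside 2.61% of all regions. At an unadjusted limma p under 0.05, 2 lay above input (beside 8.04%). Below input, 11 passed (2.30%, beside 0.713% of all), and 113 did so at an unadjusted p (23.6%, beside 9.46%). This count turned on the fit: 50 regions of the whole table had no read in both RNA replicates, and leaving them out gave 67 Random regions below input and 2 above. Over all regions it gave 601 below input and 720 above.

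No read was found in at least 1 RNA replicate for 11 Random regions (2.30%, against 2.25% of the other classes), all with an input of 7.39 FPKM or less. Only 1 of the 11 was without reads in both. The largest differences between replicates were found among such thinly covered regions. At chr12:50193721-50194120, 88 reads in replicate 1 stood against 0 in replicate 2 over 45 input reads. The region chr16:24460698-24461097 had 1 and 97 reads over 95, and chr13:70484422-70484821 had 2 and 79 over 53. The 3 members of lowest input were chr6:55993423-55993822, chr18:3150127-3150526 and chr1:36034981-36035380, with 17, 18 and 21 input reads. Their folds ran from 0.387 to 1.57, so such regions say little about activity either way.

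At the other end, the 3 members of highest input gave tight values, all below input. The region chr9:76779835-76780234 stood at 441 FPKM in the input and 217 and 205 in the RNA, with folds of 0.494 and 0.467. At chrX:74395387-74395786 the values were 380 FPKM in the input and 316 and 334 in the RNA, with folds of 0.833 and 0.880. The region chr10:105428234-105428633 had 360 FPKM in the input and 224 and 217 in the RNA, with folds of 0.624 and 0.606. The replicates of each region differed by less than the regions did from each other.

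Across the 478 regions the replicates' log2 folds had a Pearson r of 0.498 and a Spearman rho of 0.497. Both replicates share the input, so part of this likeness is built into the ratio, and regions are not independent replicates. The SD of the difference between replicates was 0.71 on the log2 scale, and 73 regions (15.3%) differed over 2-fold, beside 12.9% of all regions. By quintile of input over all regions, from lowest to highest, this SD was 1.08, 0.89, 0.72, 0.50 and 0.33 in Random. In the other classes it was 1.03, 0.80, 0.62, 0.49 and 0.32. The quintiles held 88, 72, 93, 90 and 135 Random regions. In the lowest, 30 of 88 (34.1%) differed over 2-fold between replicates, beside 31.0% of the other classes. In the highest, 1 of 135 did (0.741%, beside 0.654%). Regions in the highest quintile had a median of 1320 input reads against 73.5 in the lowest.

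The distance of Random from the other classes was widest where input was high. In the highest quintile the Random median log2 fold was -0.66 in replicate 1 and -0.68 in replicate 2, against -0.11 and -0.10 in the other classes, a difference of -0.55 and -0.58. In the fourth it was -0.63 and -0.65 against -0.23 and -0.21. In the lower 3 quintiles the difference ran from -0.11 to -0.32 in replicate 1 and from -0.07 to -0.16 in replicate 2. Random was lower in all 5 quintiles and in both replicates. The mix of the other classes was not held constant between quintiles. Median input was 75.6 FPKM in TSS_Random and 72.1 in Pro_K4me3_K27ac_PolII, with median folds of 1.002 and 0.995, and of 1.05 and 1.05. The largest class, Enh_K4me1_K27ac_PolII, had 19.98 FPKM and folds of 0.857 and 0.862. Whether the distance also widened with input against each single class was not tested. The SD of the mean log2 fold over Random regions fell from 0.70 in the lowest quintile to 0.45 in the highest, whereas that of the other classes was 0.82 and 0.74. No test of these differences was made, because regions are not replicates of a condition and 2 RNA libraries over 1 input leave no exact test.

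**Figure D3:**
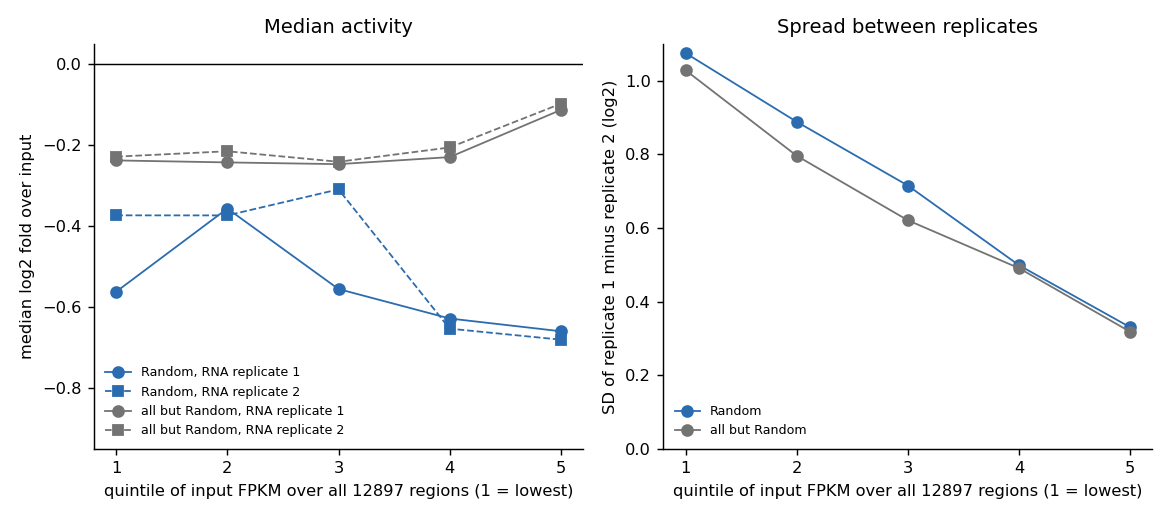
Left, median log2 fold over input by quintile of input, for Random (blue) and all other regions (grey), with solid lines for RNA replicate 1 and dashed lines for replicate 2; right, SD over regions of the difference between replicates in log2 fold. The Random medians lie under those of the other classes in each quintile and fall to -0.66 and -0.68 in the highest, while the spread between replicates falls from 1.08 to 0.33 in Random and from 1.03 to 0.32 in the rest.

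Set beside the single classes, Random had the lowest median fold of the 7 in both replicates. The nearest was Enh_K4me1, whose name carries K4me1, a histone mark found at enhancers, with median folds of 0.795 and 0.803. The Random median lay below it by a log2 difference of -0.27 in replicate 1 and -0.24 in replicate 2 (mean -0.26 ± 0.02, SD, n = 2). Against Enh_K4me1_K27ac, whose name adds K27ac, a mark of active enhancers and promoters, the difference was -0.29 and -0.25. Against TSS_Random, whose name also holds the word Random, it was -0.61 and -0.55. The median input of TSS_Random was 75.6 FPKM, well above the 26.2 of Random, whereas Enh_K4me1 had 23.1. The shared input error enters every class, and the SD over 2 replicates does not hold it.

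**Figure D4:**
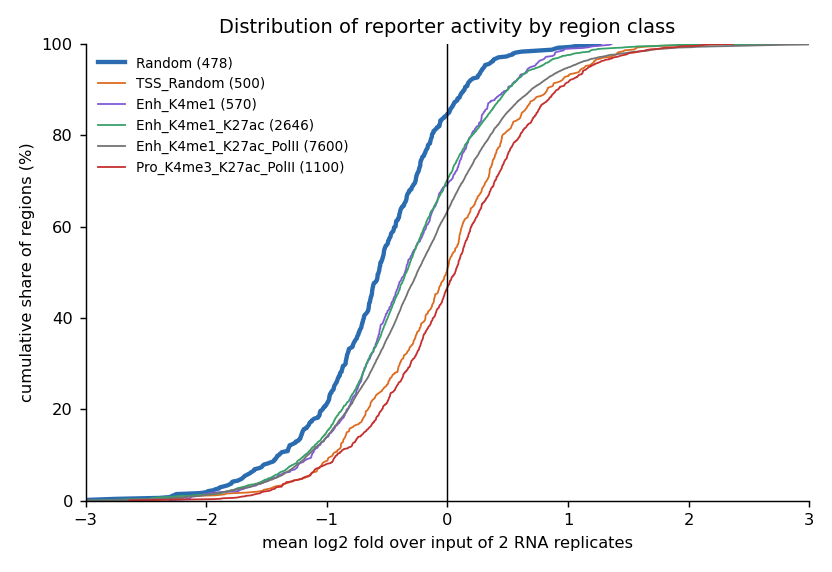
Cumulative share of regions (vertical, in %) against the mean log2 fold over input of 2 RNA replicates (horizontal) for the classes of over 3 regions; the thick blue line is Random. The Random curve lies left of the other 5 over most of its course, with a mean of its replicate medians at -0.58 against -0.32 in Enh_K4me1 and 0.07 in Pro_K4me3_K27ac_PolII.

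The upper edge of the Random class was taken here as a yardstick for the rest, a choice that the sources used here do not give as the authors' own. The 95th percentile of Random was 1.37-fold in replicate 1 and 1.38-fold in replicate 2. The 99th was 2.02 and 1.95, and the highest value was 2.87 and 2.85. Past the 95th percentile in both replicates were 1413 of the 12419 other regions (11.4%, Wilson 95% interval 10.8 to 11.9). For Random itself the number, 7, is limited by the way the percentile was set and is no comparison. The share was 5.61% (4.00 to 7.82) in Enh_K4me1, 7.14% (6.22 to 8.19) in Enh_K4me1_K27ac and 11.5% (10.8 to 12.3) in Enh_K4me1_K27ac_PolII. It was 16.8% (13.8 to 20.3) in TSS_Random and 20.7% (18.4 to 23.2) in Pro_K4me3_K27ac_PolII.

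Past the highest Random value in each replicate were 148 of the others (1.19%). Of these, 111 were of Enh_K4me1_K27ac_PolII (1.46% of its 7600 regions) and 18 of the promoter class (1.64% of its 1100). None was of Enh_K4me1, the class nearest to Random in its median. All 3 Add_Ctl regions, the class with the highest median, lay past the 95th percentile of Random, and 2 of them past its highest value. The limit of 1.5-fold over input sat between the 95th and the 99th percentile of Random in both replicates. With the percentile taken within quintiles of input, 14.0% of the other regions passed in place of 11.4%.

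The Random regions lay on 20 chromosomes, with 11 (chromosome 12) to 34 (chromosomes 1 and 6) on each. Their start positions gave all 25 remainders when divided by 25, as did those of TSS_Random. All 2646 regions of Enh_K4me1_K27ac and all 7600 of Enh_K4me1_K27ac_PolII started at a multiple of 25. Of the 570 regions of Enh_K4me1, 550 started 1 bp before such a multiple, and all 1100 of Pro_K4me3_K27ac_PolII started 1 bp past it. On each of the 20 chromosomes the Random median lay below that of the other classes in both replicates. By the median of the mean log2 fold of both replicates, chromosome 19 was an exception, at -0.19 against -0.23 in the other classes. The chromosome medians of mean log2 fold ran from -0.84 on chromosome 18 (15 regions) to -0.19 on chromosome 19 (12 regions), and the SD between regions of these 2 chromosomes was 0.60 and 0.63. On chromosome 19 the medians of the replicates were -0.53 and -0.16, so its place rests on replicate 2. Chromosome 7 was high in both, at -0.28 and -0.39, and chromosome 18 low in both, at -0.72 and -0.80.

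Random regions also differed in how close they lay to other captured regions. The median distance to the nearest region of another class was 156 kb, with a range from 0 to 8235 kb. Within 10 kb were 46 Random regions, and their median fold was 0.751 in replicate 1 and 0.806 in replicate 2. At 10 to 100 kb it was 0.696 and 0.763 (154 regions), at 100 kb to 1 Mb 0.654 and 0.664 (203 regions), and past 1 Mb 0.610 and 0.612 (75 regions). The median thus fell step by step with distance in both replicates, over bins whose values overlap widely. The share above input in both replicates did not follow the same order: it was 10.9% within 10 kb, 16.2% at 10 to 100 kb, 4.93% at 100 kb to 1 Mb and 1.33% past 1 Mb. Of the 6 regions with a fold of 1.5 in both, 5 lay 10 to 100 kb from a captured region of another class and none within 10 kb. These bins held 154 and 46 of the 478 Random regions, so the absence of such a region within 10 kb is not a result about that bin.

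Input moved with distance: its median was 23.3, 21.4, 25.2 and 62.4 FPKM from the nearest bin to the farthest. The regions were therefore split at the Random median of input. At or below it, the median fold was 0.786 and 0.835 within 100 kb (116 regions) and 0.673 and 0.742 beyond (123 regions). Above it, the values were 0.682 and 0.678 within 100 kb (84 regions) and 0.613 and 0.618 beyond (155 regions). The nearer regions were higher on both sides of the split and in both replicates. Above the split, median input still differed with distance, at 55.4 FPKM within 100 kb and 68.3 beyond. At or below it, median input was 12.8 and 12.7 FPKM. Over the 478 regions the Spearman rho of mean log2 fold with distance was -0.156. Regions share libraries and differ in depth, so this is a description of these libraries.

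**Figure D5:**
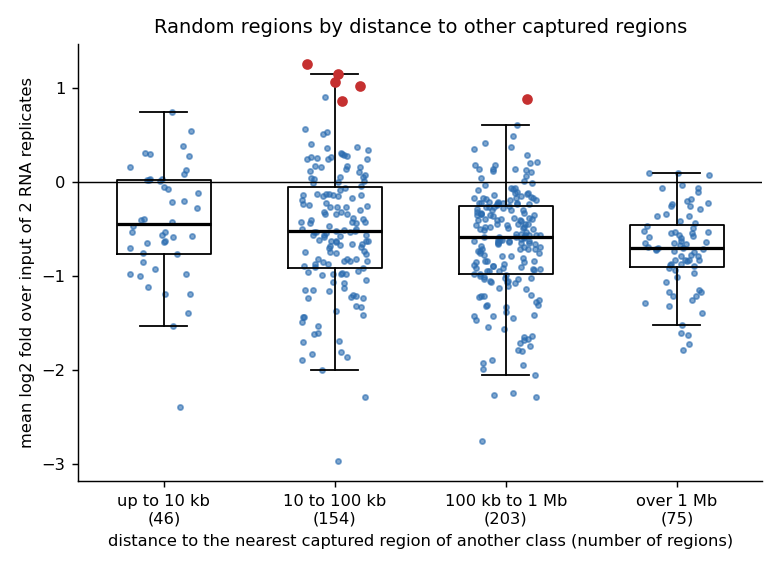
Mean log2 fold over input of 2 RNA replicates for Random regions, grouped by distance to the nearest captured region of another class; boxes give the quartiles and median, whiskers reach to 1.5 box heights, and red points are the 6 regions with a fold of at least 1.5 in both replicates. The medians fall from -0.44 within 10 kb to -0.70 past 1 Mb, and the boxes overlap.

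The folds of Random regions and of their close neighbours were hardly correlated. Of the 46 neighbours within 10 kb, 30 were of Enh_K4me1_K27ac_PolII, 8 of Enh_K4me1_K27ac, 4 of TSS_Random and 4 of Pro_K4me3_K27ac_PolII. The mean log2 folds of the 46 pairs had a Pearson r of -0.020 and a Spearman rho of 0.058. The Random member was lower than its neighbour in both replicates in 20 pairs and higher in both in 14. Of the 6 regions with a fold of 1.5 in both replicates, 0 had a nearest captured region of another class that reached it. Such regions were 8.51% of all and 6 of the 46 close neighbours, so a count of 0 in 6 is not a result about these members. The chromosome 5 region had the neighbour with the highest folds, a region of Enh_K4me1_K27ac_PolII at 36.3 kb with 3.43 and 1.48. The chromosome 2 region had a neighbour of Enh_K4me1_K27ac at 14.8 kb, with folds of 0.717 and 0.416.

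Only 2 Random regions overlapped another captured region. At chr6:114807560-114807959, 315 of the 400 bp were shared with a region of Enh_K4me1_K27ac_PolII. Both were listed at the same RNA values, 36.2 FPKM in replicate 1 and 50.8 in replicate 2, and at 42.2 and 42.1 FPKM in the input, so they hold largely the same reads. The folds of the Random region were 0.861 and 1.20. At chr12:3834847-3835246, 103 bp were shared with a region of the same class. The Random region had folds of 0.856 and 1.78, and its partner of 1.70 and 1.79, so the 2 were alike in replicate 2 and not in replicate 1. The closest Random region without an overlap, chr3:96762768-96763167, lay 0.857 kb from a region of Enh_K4me1_K27ac. Its folds were 1.28 and 1.20 and those of its neighbour 0.401 and 0.599.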

How the data were processed

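The authors deposited 1 table per RNA replicate with the FPKM of the RNA library and of the shared input, a fold ratio and an active or inactive class, per the file headers. Recomputing the deposited ratio from both FPKM values, each with 1 added, gave it back to within 4.8e-14. Bowtie2, TopHat2, Bowtie 1.2.2 and mm9 appear in the submitters' processing notes with no role given. All values of 400 bp regions were whole multiples of 1 read, within 0.1 reads, which gave the read numbers. The assayed regions held 8999732 and 9583168 reads in the RNA replicates and 7199798 in the input. Read numbers serve only to describe depth. Wilson intervals and the limit of 3 counts cover counting error only, and reads without molecular identifiers are not independent molecules.

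Log2 of FPKM plus 1 was fitted with limma 3.58.1 in R 4.3.3 (lmFit, eBayes with a trend on mean level, two-sided, 2 RNA libraries against 1 input library). The fit was also run on simulated data in which the input was drawn with the same noise as the RNA. That run could not check whether the input varied like an RNA library. Medians, correlations and distances were computed in Python 3.11.15. The files' gene names are empty and the gene table at hand is of another build, so regions were not assigned to genes. Members, lists and tests were chosen with earlier results of these data known.

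Regions named by rule were those with a fold of 1.5 in both replicates, the 10 highest and 5 lowest, those in the authors' active class, the 3 most different between replicates, the 3 of highest and of lowest input, those overlapping another region and the 3 nearest to another class. Alternatives covered the pseudocount, an input minimum of 100 reads, the fit, the centre, the threshold, overlaps and single replicates.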

Additional observations from a re-analysis of the deposited data

How the results depend on the processing

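The Random median log2 fold kept its direction in all alternatives run, and stayed within the SD between replicates in those on both replicates. With replicate 1 or replicate 2 left out it was -0.56 and -0.61. The SD was taken from these same 2 medians, so they lie within it by construction. The SD of log2 fold over Random regions, 0.71 as a mean of both replicates, was 0.95 with a pseudocount of 0.1 FPKM and 0.67 with at least 100 input reads. The 9 Random regions above the Random median became 15 with at least 100 input reads, 49 with an intercept-only fit of the ratios, 0 without the variance trend and 2 with the median of all regions as centre. Over all regions, 1737 became 2070, 3604, 0 and 892 in that order. The input minimum left 406 Random regions in the fit. The 7 Random regions below the Random median became 11, 37, 0 and 24 in the same order, 3 with a pseudocount of 0.1 FPKM and 12 without regions at 0 in both RNA replicates. Over all regions, 57 became 89, 448, 0, 171, 38 and 87. On 1 replicate, with a fold of 1.5 and no test, 86 to 89 Random regions lay above and 77 to 84 below, beside 4803 to 5014 and 1351 to 1569 of all regions. Against input, the 0 Random regions above became 2 with at least 100 input reads, 5 with the intercept-only fit and 2 without regions at 0 in both. Over all regions, 337 above input became 713, 1052 and 720. The 11 Random regions below input became 66, 143 and 67 in that order, 4 with a pseudocount of 0.1 FPKM and 0 without the trend. Over all regions, 92 below input became 611, 1671, 601, 58 and 0. The 6 with a fold of 1.5 in both replicates became 2 at a fold of 2, 0 at a fold of 3, 0 with the authors' class, 41 when centred on the Random median, and 16 to 19 on 1 replicate. Over all regions, 1098 became 450, 127, 348, 3469 and 1751 to 1881. The share of other regions past the 95th percentile of Random, 11.4%, was 3.61% at the 99th, 14.0% within quintiles of input, and 17.8% to 18.7% on 1 replicate. Among named or called regions, the alternatives on both replicates left direction and call as they were in 243 values, lost the call in 29 and gained it in 19. The 243 include values of regions that had no call to lose. Without the variance trend every call was lost, 16 of the 29 losses. A further 7 were lost with the median of all regions as centre and 6 with a pseudocount of 0.1 FPKM. The value of chrX:74395387-74395786 over the centre turned to -0.0018 with the median of all regions as centre. The cause of these changes was not tested. Leaving out regions at 0 in both RNA replicates, the robust variance prior and leaving out Random regions within 10 kb of another class were chosen after seeing the data. No paired analysis was possible because both RNA replicates share 1 input library and no other group carries the same numbers.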
